A study of Mus musculus with 5 samples.

Results

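The Dis3 nuclease family of the mouse was examined in primary nephron progenitor cells that lack 1 of its members. Its 3 genes, Dis3l2, Dis3l and Dis3, were found by symbol among the 53927 gene rows of the deposited expression table, each as 1 row. All 3 were among the 14884 genes with a level of at least 0.5 CPM (reads scaled to the library's size) in at least 2 libraries, which were the genes tested. The cells were Dis3l2-/- (KO, 3 libraries) or Dis3l2+/+ (WT, 2 libraries), came from C57BL/6J embryos and had been passaged 1 time in culture before total RNA was sequenced. The embryos' age, the part of Dis3l2 that the null allele removes, and whether each library came from its own embryo or litter are details that the sources used here do not give. P-values therefore measure only how far these libraries scatter, and that scatter may be partly technical. The questions asked were how much Dis3l2 signal is left in KO cells, and whether its paralogs stood at another level there.

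Proteins of the Dis3 family are exoribonucleases that degrade RNA from its 3' end. DIS3 is the main catalytic subunit of the nuclear RNA exosome, and DIS3L takes its place in the cytoplasmic exosome, which acts in mRNA turnover. DIS3L2 works in the cytoplasm without the exosome and prefers RNA that carries an untemplated tail of uridines, such as precursors of the let-7 microRNA that were tagged by terminal uridylyltransferases. Inherited loss of human DIS3L2 underlies Perlman syndrome, in which overgrowth comes with frequent Wilms tumours, kidney cancers thought to arise from nephron progenitors.

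The family members come from separate loci and can be told apart by short reads. Dis3l2 (ENSMUSG00000053333.15) lies on the plus strand of chromosome 1 from 86703808 to 87050095. Dis3l (ENSMUSG00000032396.17) lies on the minus strand of chromosome 9 from 64306756 to 64341288. Dis3 (ENSMUSG00000033166.11) lies on the minus strand of chromosome 14 from 99075206 to 99099770, all in GRCm38. The longest annotated coding sequences have 2652 bases in Dis3l2, 3159 in Dis3l and 2874 in Dis3. The Dis3l2 locus spans 346288 bases, against 34533 for Dis3l and 24565 for Dis3.

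The reads were 50 bases long, so every 50-base stretch of the members' annotated transcripts was compared. None of the 8943 distinct stretches of Dis3l2 occurs in Dis3l or Dis3 on either strand, and none of the 5452 of Dis3l occurs in Dis3, which has 7885. Exact 50-base matches to other genes' transcripts on either strand cover 0.123% of the Dis3l2 stretches and none of the Dis3l stretches. They cover 3.89% of the Dis3 stretches, of which 276 stretches match the opposite strand of Pibf1, a neighbour that starts inside Dis3. The longest identical runs between the coding sequences follow here because they mark how far the paralogs are from sharing a whole read. Capitals mark the shared run, and lower case marks 15 bases of coding sequence on each side (GENCODE transcripts, GRCm38). Dis3l2 and Dis3 share 20 bases, in Dis3l2 across exons 17 and 18 (chr1:87044909-87047078, plus strand, intron left out) and in Dis3 within exon 17 (chr14:99079718-99079767, minus strand).
Dis3l2, run shared with Dis3: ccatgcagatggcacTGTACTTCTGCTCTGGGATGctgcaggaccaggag
Dis3, run shared with Dis3l2: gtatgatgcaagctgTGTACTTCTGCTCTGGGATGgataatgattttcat
Dis3l and Dis3 share 14 bases, in Dis3l within exon 9 (chr9:64317773-64317816, minus strand) and in Dis3 across exons 8 and 9 (chr14:99088889-99089641, minus strand, intron left out).
Dis3l, run shared with Dis3: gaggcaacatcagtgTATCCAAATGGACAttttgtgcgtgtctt
Dis3, run shared with Dis3l: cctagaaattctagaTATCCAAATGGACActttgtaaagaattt
Dis3l2 and Dis3l share 13 bases, in exon 14 of Dis3l2 (chr1:86990184-86990226, plus strand) and exon 12 of Dis3l (chr9:64311527-64311569, minus strand).
Dis3l2, run shared with Dis3l: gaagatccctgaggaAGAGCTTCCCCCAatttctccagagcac
Dis3l, run shared with Dis3l2: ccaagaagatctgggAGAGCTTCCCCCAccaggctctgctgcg
No error-free read of this length from an annotated Dis3l or Dis3 transcript therefore matches Dis3l2.

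The libraries held between 19.61 and 49.25 M assigned reads in KO and between 22.34 and 28.26 M in WT (M), as the spacing of low values gives them. The progenitor markers Itga8 and Six2 were detected in every library. Itga8 was between 356 and 471 CPM in KO and between 438 and 441 CPM in WT. Six2 was between 18.6 and 31.9 CPM in KO and between 18.8 and 19.0 CPM in WT. Pax2 was low, at most 0.66 CPM in KO and 0.18 CPM in WT, and Cited1 ran from 2.73 to 17.1 CPM in KO and from 1.40 to 15.2 CPM in WT. The summed level of 10 progenitor markers was 747 to 906 CPM in KO and 730 to 923 CPM in WT. Itga8 was the highest of these markers in every library, so the sum says little about the low ones. Of 5 further marker lists of 4 genes each, podocyte markers summed to 2.72 to 5.00 CPM in KO and 5.52 to 6.15 CPM in WT, and leukocyte markers to 3.26 to 3.61 CPM in KO and 3.80 to 4.22 CPM in WT. Stroma markers summed to 48.7 to 94.8 CPM in KO and 73.0 to 148 CPM in WT, ureteric epithelium markers to 6.25 to 12.6 CPM in KO and 4.77 to 7.90 CPM in WT, and endothelium markers to 12.2 to 36.8 CPM in KO and 8.33 to 19.9 CPM in WT. The stroma sum was above the level of Six2 in every library, so these markers do not fix how pure the cultures were. The leukocyte gene Ptprc was at most 0.03 CPM in KO and 0.11 CPM in WT. Mitochondrial ribosomal RNA took 31.6% to 32.9% of the summed values in KO and 38.9% to 40.7% in WT. The podocyte and leukocyte sums and the mitochondrial share thus separate the genotypes in the same way as Dis3l2 and Dis3l do, and their part in the family's values was not tested. In bulk RNA, fewer cells of a type and less RNA per cell cannot be told apart.

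Dis3l2 was lower in KO cells but far from absent. It stood at 6.50, 4.93 and 4.70 CPM in KO replicates 1, 2 and 3, against 16.04 and 12.18 CPM in WT replicates 1 and 2. These levels correspond to 305, 158 and 100 reads in KO and 346 and 347 reads in WT, so the residual signal rests on many reads in each library. Read numbers here and below were recovered from the spacing of low values. Under a stricter check that recovery did not hold in every library, so the read numbers and their counting errors are approximate. The genotypes did not overlap, with all KO values under the lower WT value. Relative to the WT mean, the KO libraries kept 46.1%, 34.9% and 33.3%, and over the 6 pairings of a KO with a WT library the share left ran from 29.3% to 53.4%. The means were 5.38 ± 0.98 CPM in KO and 14.1 ± 2.73 CPM in WT (SD, n = 3 and 2), so the KO mean was 38.1% of the WT mean.

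The spread within each genotype was wider than counting alone gives. The 95% Poisson intervals, which cover counting error only, were 5.79 to 7.27 CPM in KO replicate 1, 4.19 to 5.76 in KO replicate 2 and 3.83 to 5.72 in KO replicate 3. In WT they were 14.4 to 17.8 CPM in replicate 1 and 10.9 to 13.5 CPM in replicate 2. The interval of KO replicate 1 did not reach that of KO replicate 3, nor did that of WT replicate 1 reach that of WT replicate 2. The coefficient of variation between libraries was 18.2% in KO and 19.3% in WT, against counting errors of 5.73% and 7.96% in KO replicates 1 and 2 and of 5.38% and 5.37% in WT, and the 100 reads of KO replicate 3 carry the widest counting error.

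The log2 fold change of Dis3l2, KO over WT on the log2(CPM + 1) scale, was -1.24 ± 0.21 (SE) and a 95% interval of -1.74 to -0.75. A log2 fold change as low or lower was found for 11 of the 14884 genes tested, Dis3l2 among them, or 0.0739%. It had the ninth smallest p (0.000616, unadjusted, limma), which missed the threshold of 0.05 after Benjamini-Hochberg adjustment over the genes tested (adjusted p = 0.9545, limma). The authors' deposited table gives -1.38 for it, with an FDR of 0.00855. An exact two-sided permutation test gave p = 0.1, which is the smallest that 3 against 2 libraries allow. Because Dis3l2 is the targeted gene, its lower level checks the genotype labels and is no finding about the cells.

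**Figure D1:**
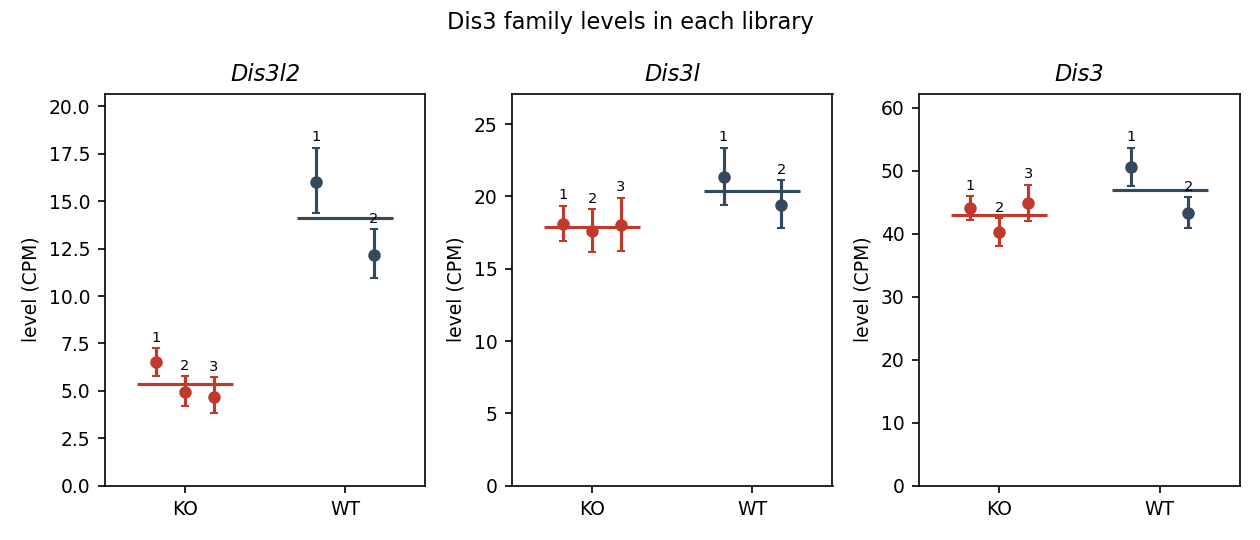
Levels in CPM (vertical axes, from 0) of Dis3l2, Dis3l and Dis3 in KO (red, 3 libraries) and WT (dark blue, 2 libraries), with replicate numbers above the points. Bars are 95% Poisson intervals on each library's recovered, approximate reads, and horizontal lines are group means. Dis3l2 sits between 4.70 and 6.50 CPM in KO and at 12.18 and 16.04 CPM in WT, while the paralogs differ by much less.

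Dis3l, the cytoplasmic exosome nuclease, was not higher in any KO library than in WT. It stood at 18.09, 17.59 and 18.01 CPM in KO (849, 564 and 383 reads) and at 21.33 and 19.41 CPM in WT (460 and 553 reads). All 3 KO libraries lay below both WT libraries and within 0.50 CPM of each other. The means were 17.9 ± 0.27 CPM in KO and 20.4 ± 1.36 CPM in WT (SD, n = 3 and 2), which put KO at 87.9% of WT. The log2 fold change was -0.18 ± 0.14 (SE) (adjusted p = 1, limma), and its 95% interval ran from -0.50 to 0.15. On that scale the interval spans 70.6% to 110.9% of the WT level. The difference is thus within the error of the fit. The upper limit was higher in some smaller sets. On the log2 scale it was 0.40 without WT replicate 1, 0.29 without KO replicate 2 and 0.27 without WT replicate 2. In that order the SEs were larger, at 0.21, 0.19 and 0.21, and the log2 fold changes stayed negative, at -0.11, -0.16 and -0.24. A modest rise in Dis3l lies within the intervals of those smaller sets. The authors' deposited table gives -0.19 for Dis3l, with an FDR of 1.

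Dis3, the nuclear exosome nuclease, overlapped between the genotypes. It stood at 43.98, 40.17 and 44.82 CPM in KO (2064, 1288 and 953 reads) and at 50.55 and 43.29 CPM in WT (1090 and 1233 reads). KO replicates 1 and 3 lay above WT replicate 2, and all 3 lay below WT replicate 1. The means were 43.0 ± 2.48 CPM in KO and 46.9 ± 5.13 CPM in WT (SD, n = 3 and 2), or 91.6% of WT. The log2 fold change was -0.12 ± 0.14 (SE) (adjusted p = 1, limma) and a 95% interval of -0.44 to 0.20, which spans 73.5% to 115% of the WT level. WT replicate 1 sets most of this value: without it the log2 fold change was -0.01, and without WT replicate 2 it was -0.23. Leaving out WT replicate 1 put the upper limit of the interval at 0.46, and leaving out KO replicate 2 put it at 0.35. The authors' deposited table gives -0.13 for Dis3, with an FDR of 1.

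None of the 3 members passed over all genes with limma, where 1 gene, or 0.00672% of those tested, did. At an unadjusted p under 0.05 there was 1 member, Dis3l2, against 2.77% of all genes in either direction and 1.27% lower in KO. All 3 members had a log2 fold change below 0, as did 47.1% of the genes tested. The authors' deposited table called Dis3l2 and neither paralog, where 0.0315% of its rows were called in either direction and 0.0167% as lower in KO. In Dis3l2 and Dis3l all KO values were under both WT values, an order found for 6.98% of the genes tested, and it was kept with either of 2 other scalings of the libraries. With each library scaled to the same sum, the gap for Dis3l narrowed to 19.53 CPM in KO replicate 3 against 19.57 CPM in WT replicate 2.

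**Figure D2:**
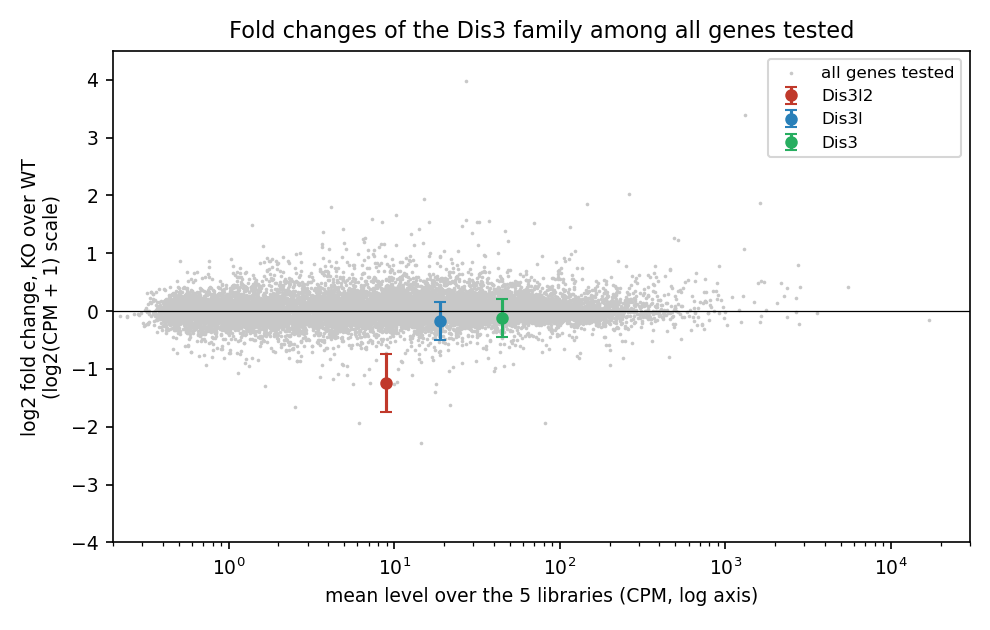
Log2 fold change, KO over WT (vertical axis, log2(CPM + 1) scale), against the mean level over the 5 libraries in CPM (log axis) for the 14884 genes tested (grey points), with the family members in colour and their 95% intervals. Dis3l2 lies below 0 with its whole interval, and the intervals of Dis3l and Dis3 both include 0.

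Ratios taken within a library do not depend on how the libraries were scaled. Dis3 had 2.43, 2.28 and 2.49 times the CPM of Dis3l in KO and 2.37 and 2.23 times in WT, so the balance between the nuclear and the cytoplasmic exosome nuclease overlapped between genotypes. Dis3l had 2.78, 3.57 and 3.83 times the CPM of Dis3l2 in KO and 1.33 and 1.59 times in WT. Dis3 had 6.77, 8.15 and 9.54 times the CPM of Dis3l2 in KO and 3.15 and 3.55 times in WT. Both ratios to Dis3l2 were higher in every KO library than in either WT library, as the lower Dis3l2 level sets them. These ratios compare counts and not numbers of transcripts, since the genes differ in length.

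Per kilobase of annotated exon, the order of the levels was the same in both genotypes. Dis3 was highest, with 5.54 ± 0.32 CPM per kb in KO and 6.05 ± 0.66 in WT. Dis3l followed with 3.28 ± 0.05 in KO and 3.73 ± 0.25 in WT, and Dis3l2 was lowest with 0.604 ± 0.11 in KO and 1.58 ± 0.31 in WT (SD, n = 3 and 2). Neighbours in this order did not overlap in any library of the same genotype. Dis3l2 made up 7.52%, 6.18% and 5.50% of the family's summed CPM per kb in KO and 14.7% and 13.0% in WT. The family sum itself was 9.72, 8.96 and 9.61 CPM per kb in KO and 12.2 and 10.5 in WT, lower in every KO library. The exon length matters most for Dis3l2: 4594 of its 8901 exonic bases belong only to transcripts annotated as retained introns, against 758 of 5458 in Dis3l and 2498 of 7754 in Dis3. With those bases taken off the length only, the mean levels were 1.25 CPM per kb in KO and 3.28 in WT for Dis3l2. They were 3.81 in KO and 4.33 in WT for Dis3l, and 8.18 in KO and 8.93 in WT for Dis3, in the same order. Reads that fell in those bases still count here, so these values are upper limits.

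The Dis3l2 locus holds other gene models, which give a view along its introns. On the same strand there are 9 that are clear of every annotated Dis3l2 exon, between 71.0 and 335.8 kb from the gene's start. Of these, 8 are provisional models of the class TEC and 1 is a sense intronic RNA. Unlike the gene itself, their summed level did not separate the genotypes. It was 4.44, 2.58 and 3.55 CPM in KO (208, 83 and 75 reads) and 3.77 and 2.96 CPM in WT (81 and 84 reads), with means of 3.52 ± 0.93 CPM in KO and 3.37 ± 0.57 CPM in WT (SD, n = 3 and 2), so the KO mean was 104.7% of the WT mean. KO replicates 1 and 2 were the highest and the lowest of all 5 libraries. Of the 9 models, 5 had a higher mean in KO, 3 a lower one and 1 the same.

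Each of the better covered models had reads in every KO library. Gm38142, 122.3 kb into the gene, had 0.75, 0.25 and 0.71 CPM in KO and 0.51 and 0.46 CPM in WT. Gm38021, at 189.8 kb, had 1.32, 0.37 and 1.13 CPM in KO and 1.25 and 0.77 CPM in WT, and Gm37447, at 332.9 kb and thus near the gene's end, had 0.79, 0.53 and 0.47 CPM in KO and 0.51 and 0.67 CPM in WT. Their log2 fold changes were 0.06, -0.08 and 0.00, with SEs of 0.19, 0.26 and 0.16 (adjusted p = 1 for each, limma), and the genotypes overlapped in all 3. The 9 models came to 0.166 ± 0.04 CPM per kb in KO and 0.159 ± 0.03 in WT, well under the exonic level of Dis3l2 in either genotype. Relative to Dis3l2 itself, their sum was 0.683, 0.523 and 0.755 in KO and 0.235 and 0.243 in WT, higher in every KO library. The lower Dis3l2 level in KO sets this ratio, since the sums themselves overlapped, so it adds no separate result. The library kit marks strand, but the sources used here do not state the strand setting of the counting, so reads from the opposite strand cannot be told apart from these.

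**Figure D3:**
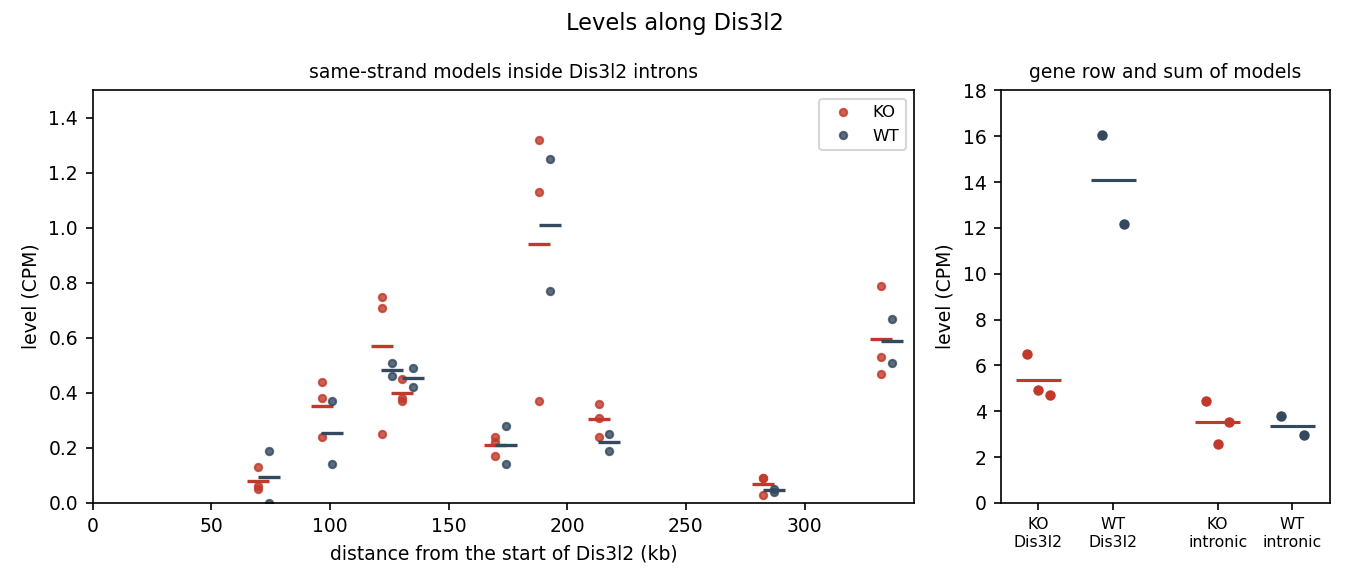
Left, level in CPM of the 9 same-strand models inside Dis3l2 introns against distance from the start of the gene in kb, for KO (red) and WT (dark blue) libraries, with short lines at the means. Right, the Dis3l2 row and the sum of the 9 models in each library. The gene row separates the genotypes, while the sums overlap at 2.58 to 4.44 CPM in KO and 2.96 to 3.77 CPM in WT.

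A further 3 models lie on the opposite strand within Dis3l2. The processed pseudogene Gm6136, 205.0 kb from the start, was well expressed, with 19.9, 20.8 and 18.7 CPM in KO and 20.4 and 21.7 CPM in WT, a log2 fold change of -0.09 ± 0.14 (SE) (adjusted p = 1, limma). Pseudogene reads can belong to a parent gene elsewhere, so its level is uncertain. The pseudogene Gm29097 and the antisense gene Gm28375, which overlaps Dis3l2 exons, were at 0 in all 5 libraries.

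Among the genes next to the family members, the genotypes did not overlap in Cops7b and Megf11, as in 14.8% of all genes tested. In the other neighbours named here they overlapped. The nearest tested protein-coding gene before Dis3l2, the COP9 signalosome subunit Cops7b, had 15.2 ± 2.57 CPM in KO and 12.8 ± 1.15 CPM in WT (SD, n = 3 and 2), with a log2 fold change of 0.23 ± 0.18 (SE) (adjusted p = 1, limma). Its levels were 18.2, 13.72 and 13.78 CPM in KO, all above the 13.59 and 11.97 CPM in WT. The nearest one after Dis3l2, the cap-binding protein gene Eif4e2, had 93.0 ± 3.58 CPM in KO and 87.3 ± 8.10 CPM in WT, with a log2 fold change of 0.09. At the Dis3 locus, Pibf1, which overlaps the start of Dis3 by 347 bases on the other strand, had 16.2 ± 0.83 CPM in KO and 16.9 ± 0.94 CPM in WT, and Bora, 665 bases beyond the end of Dis3, had a log2 fold change of 0.16. Klf5, on the far side of Pibf1, had 2.48 ± 0.66 CPM in KO and 2.26 ± 0.63 CPM in WT. At the Dis3l locus, the replication fork gene Tipin ends 1331 bases from the end of Dis3l and had 68.9 ± 6.59 CPM in KO and 68.6 ± 3.07 CPM in WT. On the other side Megf11 had 1.02, 0.53 and 0.42 CPM in KO and 1.30 and 3.34 CPM in WT, a log2 fold change of -0.95 ± 0.30 (SE) (unadjusted p = 0.0161, adjusted p = 1, limma). None of these 7 neighbours passed over all genes.

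The exosome that carries Dis3 and Dis3l was measured through its core. Of 10 core genes 9 were tested, 6 with a positive and 3 with a negative log2 fold change, none past the threshold and none at an unadjusted p under 0.05 (limma). Their median log2 fold change was 0.03, beside 0.01 for all genes tested. The ring subunit Exosc4 had the smallest p, with 12.91, 10.95 and 7.90 CPM in KO and 7.84 and 7.13 CPM in WT, a log2 fold change of 0.43 ± 0.22 (SE) (adjusted p = 1, limma). The KO libraries lay above both WT libraries there, by 0.06 CPM in the case of KO replicate 3. The cap subunit Exosc2 had 26.6 ± 1.06 CPM in KO and 29.2 ± 2.20 CPM in WT, and the cap subunit Exosc3 had 13.6 ± 2.31 CPM in KO and 12.0 ± 2.65 CPM in WT. Exosc10, the other nuclease of the nuclear exosome, had 50.1 ± 6.67 CPM in KO and 48.8 ± 1.23 CPM in WT. Exosc6 was listed at 0 in every library, which by itself does not show that its transcript was absent, and the cause was not tested.

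Cofactors that feed RNA to the exosome gave the same picture of small differences. All 12 were tested, 6 with a positive and 6 with a negative log2 fold change and a median of 0.01, and none passed or had an unadjusted p under 0.05 (limma). Skiv2l, the helicase of the cytoplasmic Ski complex that works with Dis3l, had 35.9, 34.4 and 23.5 CPM in KO and 25.0 and 22.7 CPM in WT, a log2 fold change of 0.36 ± 0.21 (SE) (adjusted p = 1, limma). KO replicate 3 lay between the WT libraries there, so the genotypes overlapped. Papd7, a noncanonical poly(A) polymerase gene, had 23.7 ± 1.31 CPM in KO and 27.1 ± 2.16 CPM in WT, all KO values being under both WT values. Zcchc7, a subunit of the nuclear adaptor that recruits the exosome, had 31.8 ± 4.63 CPM in KO and 36.0 ± 0.79 CPM in WT.

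The enzymes that write the uridine tails read by Dis3l2 were expressed at similar levels in both genotypes. Zcchc11 (TUT4) had 65.4, 58.9 and 77.5 CPM in KO and 68.4 and 65.4 CPM in WT, with a log2 fold change of 0.00 and a 95% interval of -0.36 to 0.36. Zcchc6 (TUT7) had 85.3, 92.2 and 99.7 CPM in KO and 94.9 and 97.1 CPM in WT, with a log2 fold change of -0.06 and an interval of -0.36 to 0.24. Tut1, which uridylates the U6 small nuclear RNA, had 11.8 ± 1.46 CPM in KO and 11.2 ± 1.63 CPM in WT. Lin28a and Lin28b, whose proteins recruit these enzymes to let-7 precursors, were not tested because their levels were at most 0.03 CPM in KO and 0.09 CPM in WT. Of the 3 genes tested in this list none passed, and none had an unadjusted p under 0.05 (limma).

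Among 14 other exoribonuclease genes 13 were tested, with 5 positive and 8 negative log2 fold changes, a median of -0.01 and a range of -0.21 to 0.13. None passed or had an unadjusted p under 0.05 (limma). The cytoplasmic 5'-to-3' nuclease gene Xrn1 had 58.1 ± 6.23 CPM in KO and 59.5 ± 1.00 CPM in WT, and its nuclear relative Xrn2 had 92.5 ± 2.81 CPM in KO and 91.4 ± 7.51 CPM in WT (SD, n = 3 and 2). The smallest p values in the list belonged to Eri2, with a log2 fold change of -0.21, to the mitochondrial nuclease gene Pnpt1, with -0.10, and to Usb1, which trims the U6 small nuclear RNA, with 0.09. Across the 4 lists, 37 of 41 genes were tested, 18 with a positive and 19 with a negative log2 fold change. In 2 of them all KO values were above both WT values and in 2 below both, where 7.85% and 6.98% of all genes tested did so.

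Genes whose levels followed those of the family most closely over the 5 libraries were found by the root mean square distance between centred log2(CPM + 1) values, among 8302 protein-coding genes with a mean of at least 5 CPM. Dis3l2 itself varied by 0.64 on that scale, and no gene came within 0.1 of it. The nearest was the glutamate receptor gene Grin2a at 0.13, with 4.69, 2.37 and 2.77 CPM in KO and 10.43 and 7.76 CPM in WT. The retinoic acid synthesis gene Aldh1a2 followed at 0.16, with 178, 139 and 128 CPM in KO and 323 and 244 CPM in WT. In both, as in Dis3l2, KO replicate 1 was the highest KO library and WT replicate 1 the higher WT library. Edil3, AW551984 and St6galnac5 came next, at 0.20, 0.20 and 0.21. These genes were picked for following Dis3l2, so their lower levels in KO are a description and carry no test. The paralogs varied little, by 0.10 for Dis3l and 0.11 for Dis3, and 936 and 1319 genes lay within 0.1 of them. A gene that does not vary at all would lie about as near, at 0.10 from Dis3l and 0.11 from Dis3. These counts thus do not show a shared pattern and cannot be set against that of Dis3l2. Among the closest were Rsl24d1 and Pknox2 for Dis3l and Mtmr3, Abraxas1 and Cbll1 for Dis3.

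The libraries differed in sex, by the Y-linked gene Ddx3y, which was at 128 CPM in KO replicate 3 and 104 CPM in WT replicate 1 and at most 0.19 CPM elsewhere. Within the libraries with Ddx3y, 1 of each genotype, Dis3l2 was at 4.70 CPM in KO and 16.04 CPM in WT, or 29.3% of WT. Within those without it, Dis3l2 averaged 5.72 CPM in KO (2 libraries) and was at 12.18 CPM in WT (1 library), or 46.9% of WT. Dis3l was at 84.4% of WT in the libraries with Ddx3y and at 91.9% in those without it, and Dis3 at 88.7% and 97.2%. All 3 genes thus had a lower mean level in KO in both subsets, with no replicate in WT in either. For Dis3 without Ddx3y, KO replicate 1 (43.98 CPM) lay above the WT library (43.29 CPM) and KO replicate 2 (40.17 CPM) below it. The subsets use the same libraries as the main comparison and add no separate evidence.

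**Figure D4:**
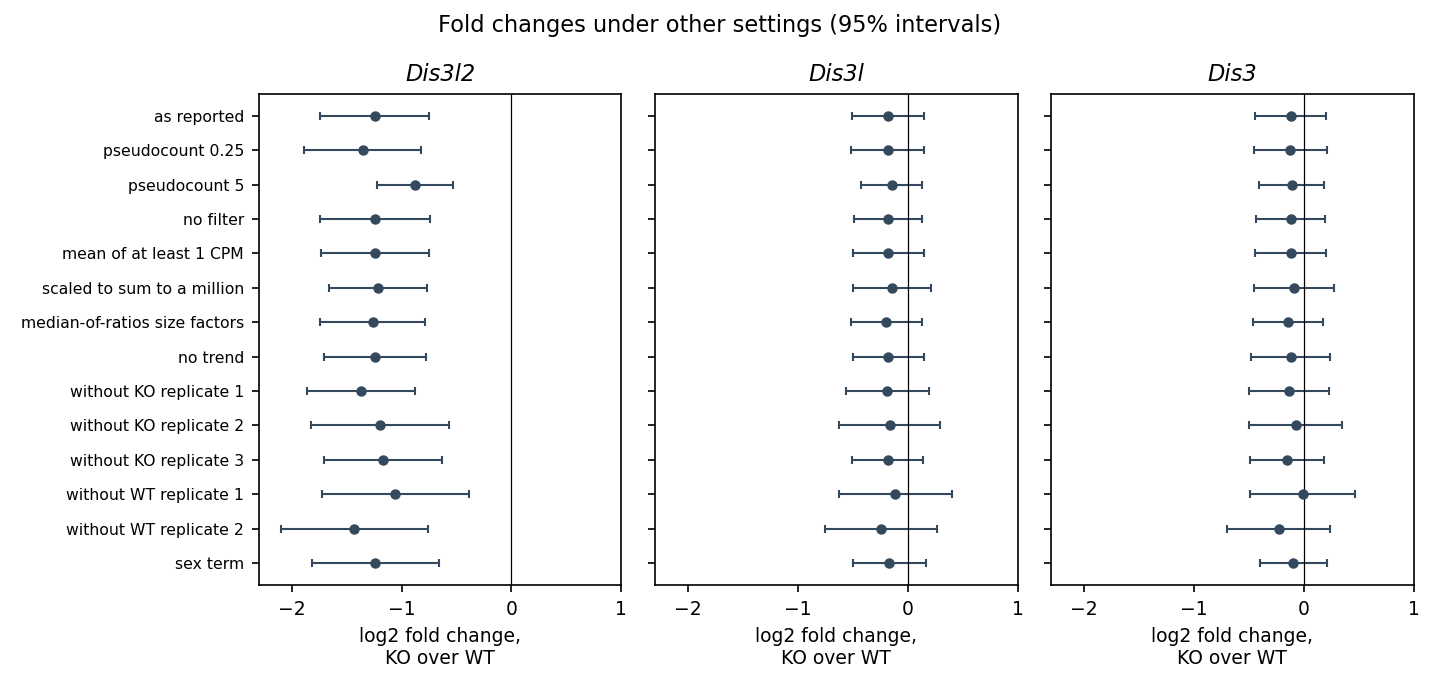
Log2 fold change, KO over WT, with its 95% interval (horizontal axis) for Dis3l2, Dis3l and Dis3 as reported and under other settings of limma (rows). Dis3l2 lies between -0.88 and -1.43 with every interval below 0, and the intervals of both paralogs include 0 in every row.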

How the data were processed

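Primary nephron progenitor RNA from 3 KO and 2 WT libraries was compared. Per the submitters' processing notes, HISAT2 2.1.0, featureCounts, edgeR 3.20.1 and the build mm10 were used. The sources used here do not state the annotation release, the strand setting or the treatment of reads with several matches. The authors deposited a signal per library, in CPM with 2 decimals, whose column sums show a scaling beyond the raw library size. The same deposited table holds the authors' log2 fold change, a likelihood ratio score, and their p-value and FDR.

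Depth was taken from the spacing of low values, of which 99.98% or more per library fell on a whole number of reads within the rounding (0.0055 CPM). A count model was not run, because under a stricter check the recovery of whole reads held in 1 of the 5 libraries. Differences were tested with limma 3.58.1 (R 4.3.3, trend option) on log2(CPM + 1), genotype as the 1 term, with two-sided Benjamini-Hochberg adjustment and a threshold of 0.05; the step was tested on simulated data. Fold changes on this scale understate those of low genes. Spans, exons and transcripts come from GENCODE M21 (GRCm38), whose versioned IDs match 50690 of 53927 rows. Members, lists and rules were chosen with earlier results of these data known. Named genes were the members, up to 3 genes per list with the smallest p, the closest genes by distance (5 for Dis3l2, 3 for each paralog), overlapping genes and nearest tested neighbours. Exosc10, Xrn1, Xrn2 and the marker genes are named for their role, outside that rule and after their values were seen. A gene that the rule selects and a marker gene are not reported here. Alternatives changed the pseudocount, filter, scaling, trend option, libraries and pairing, and a sex term was added after the data had been seen.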

Additional observations from a re-analysis of the deposited data

How the results depend on the processing

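Dis3l2, Dis3l and Dis3 kept a negative log2 fold change under every alternative run. Without each library in turn it ran from -1.43 to -1.06 for Dis3l2, from -0.24 to -0.11 for Dis3l and from -0.23 to -0.01 for Dis3; leaving out a WT library leaves 1, which is assumed to vary like the others. The paralogs passed under none of the alternatives. Genes past the threshold numbered 1 as reported and 0 with a pseudocount of 5, with no filter, with median-of-ratios size factors, with no trend and with the sex term; without each library in turn they ran from 0 to 8 (5 without KO replicate 1, 8 without KO replicate 3 and 0 without any other), and the cause was not tested. With a replicate block, which drops KO replicate 3 from the genotype contrast, 390 genes passed, and Dis3l2 passed with a log2 fold change of -1.17 (adjusted p = 0.0278, limma, against 0.1795 to 1 over its other alternatives). The labels do not tell what a replicate number stands for. Deviations of same-numbered libraries correlated at 0.378 and 0.581 across 9864 genes, which are not independent, and 2 pairs are too few to show a pairing. Scaling moved the median log2 fold change of all genes to at most 0.04. Depth limits the single intronic models, some of which had fewer than 10 reads in a library.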
